A study of Mus musculus with 24 samples.

Results

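Lysosomal cathepsins and legumain are the proteases that degrade proteins inside acidic vesicles, and they were examined here in mouse choroid. The group was chosen by name and held 10 of the 56065 genes in the table. It comprised the cysteine cathepsins Ctsb, Ctsc, Ctsh, Ctsk, Ctsl, Ctss and Ctsz, the aspartic protease Ctsd, the asparaginyl endopeptidase Lgmn (legumain), and Cst3, which encodes cystatin C, a secreted inhibitor of cysteine cathepsins. Choroidal RNA was sequenced in 24 SMART-Seq libraries. Of these, 4 came from untreated wild type mice (WT, libraries 21, 22, 26 and 27), 4 from untreated Ceacam1-/- mice (libraries 23, 24, 25 and 28), 9 from lasered WT mice (libraries 1, 2, 3, 11, 12, 13, 16, 17 and 19) and 7 from lasered Ceacam1-/- mice (libraries 4, 5, 6, 7, 14, 15 and 18). The background strain was C57BL/6J. Ceacam1-/- animals and their WT littermates came from matings of heterozygous carriers of a germline deletion of exons 1 and 2 of Ceacam1. Laser burns, which rupture Bruch's membrane and provoke choroidal neovascularization, were set as 6 spots per eye at 150 mW, 200 µm and 100 ms. Testing found no rd8 allele in the animals. Males and females were included, but the labels give neither the sex nor the time after laser of a library. Nothing in the labels states that each library came from a separate animal, so p values measure only the spread between these libraries, which may be partly technical. Values are normalized counts, the authors' estimates of reads per gene corrected for library size and transcript length, and they summed to between 23704346 and 35094410 per library.

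Cathepsins are made as inactive precursors, are carried to the lysosome largely by mannose 6-phosphate receptors and become active in its acidic lumen, where they cleave one another and the cargo of phagocytosis and autophagy. In the retinal pigment epithelium they digest the outer segment tips that photoreceptors shed every day, with cathepsin D as the major enzyme of that task. In macrophages and microglia, cathepsin S trims the invariant chain for antigen presentation and remains active outside the lysosome, and cathepsin K, the collagenase of osteoclasts, is also made by fibroblasts that remodel matrix.

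The targeted gene was read first. Ceacam1 (chr7:25161128-25177257, GRCm39, minus strand) had 958, 5027, 1242 and 4596 normalized counts in the untreated WT libraries 21, 22, 26 and 27. The untreated Ceacam1-/- libraries 23, 24, 25 and 28 had 405, 505, 508 and 1171. With laser it ranged from 774 to 8367 (median 996) in WT and from 67.8 to 905 (median 335) in Ceacam1-/- libraries. The genotypes overlapped in both settings: the Ceacam1-/- library 28 was above the WT library 21, and the lasered Ceacam1-/- library 15 was above the lasered WT library 13 (774). Reads of the exons outside the deletion can still be counted, so the gene checks the labels only in part.

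The tissue was dissected as choroid together with the pigment epithelium and sclera, and its libraries differed in what else they held. Marker lists were summarised per library as the mean log2 value of their genes. Photoreceptor genes, which belong to the neural retina, exceeded pigment epithelium genes in 5 libraries. These were the lasered Ceacam1-/- libraries 14 (15.19 against 11.44), 15 (14.31 against 11.72) and 18 (15.06 against 10.91), the untreated Ceacam1-/- library 23 (14.26 against 13.22) and the untreated WT library 21 (14.19 against 13.46). No lasered WT library was among them. They are called photoreceptor-rich below, and the comparisons of the members, the list counts and medians and the correlations are also described without them. This setting was chosen after seeing the data. The sum of 4 Y-linked genes exceeded 100 normalized counts in 1 of 4 untreated WT, 5 of 9 lasered WT, 1 of 4 untreated Ceacam1-/- and 1 of 7 lasered Ceacam1-/- libraries, so the sexes were not balanced over the groups. In WT the same 6 members were past the threshold with and without these genes as a covariate.

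The sequences around the start sites of the members were read for motifs of lysosomal and myeloid genes. They were taken from GRCm39, from 250 bases before to 50 bases after the canonical start, on both strands. An E-box (CACGTG) was found in 2 of the 10, Ctsb and Ctsd, and in 7.82% of 21757 promoters. Its extended form TCACGTGA, the core of the CLEAR element that TFEB recognises in lysosomal genes, was in Ctsb alone and in 1.11% of promoters. It contains the E-box of Ctsb. A PU.1 site (GAGGAAGT) was in Ctss alone and in 3.07% of promoters, and an AP-1 site (TGANTCA) was in none of the 10 and in 7.15% of promoters. The stretches with these matches are shown 5′ to 3′ on the strand of the gene with the match in capitals, for Ctsb at chr14:63359843-63359902 (plus strand), Ctsd at chr7:141941777-141941836 (minus strand) and Ctss at chr3:95434055-95434114 (plus strand).
Ctsb: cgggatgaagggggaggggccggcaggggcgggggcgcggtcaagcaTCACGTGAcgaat
Ctsd: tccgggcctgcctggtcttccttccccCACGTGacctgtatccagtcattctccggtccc
Ctss: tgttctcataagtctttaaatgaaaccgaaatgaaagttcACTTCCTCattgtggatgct
The match of Ctsb lies 13 to 20 bases after the start site, that of Ctsd 34 to 29 bases before it and that of Ctss, read on the opposite strand, 6 to 13 bases after it. A match is a description of these letters and shows neither binding nor its absence.

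**Figure D1:**
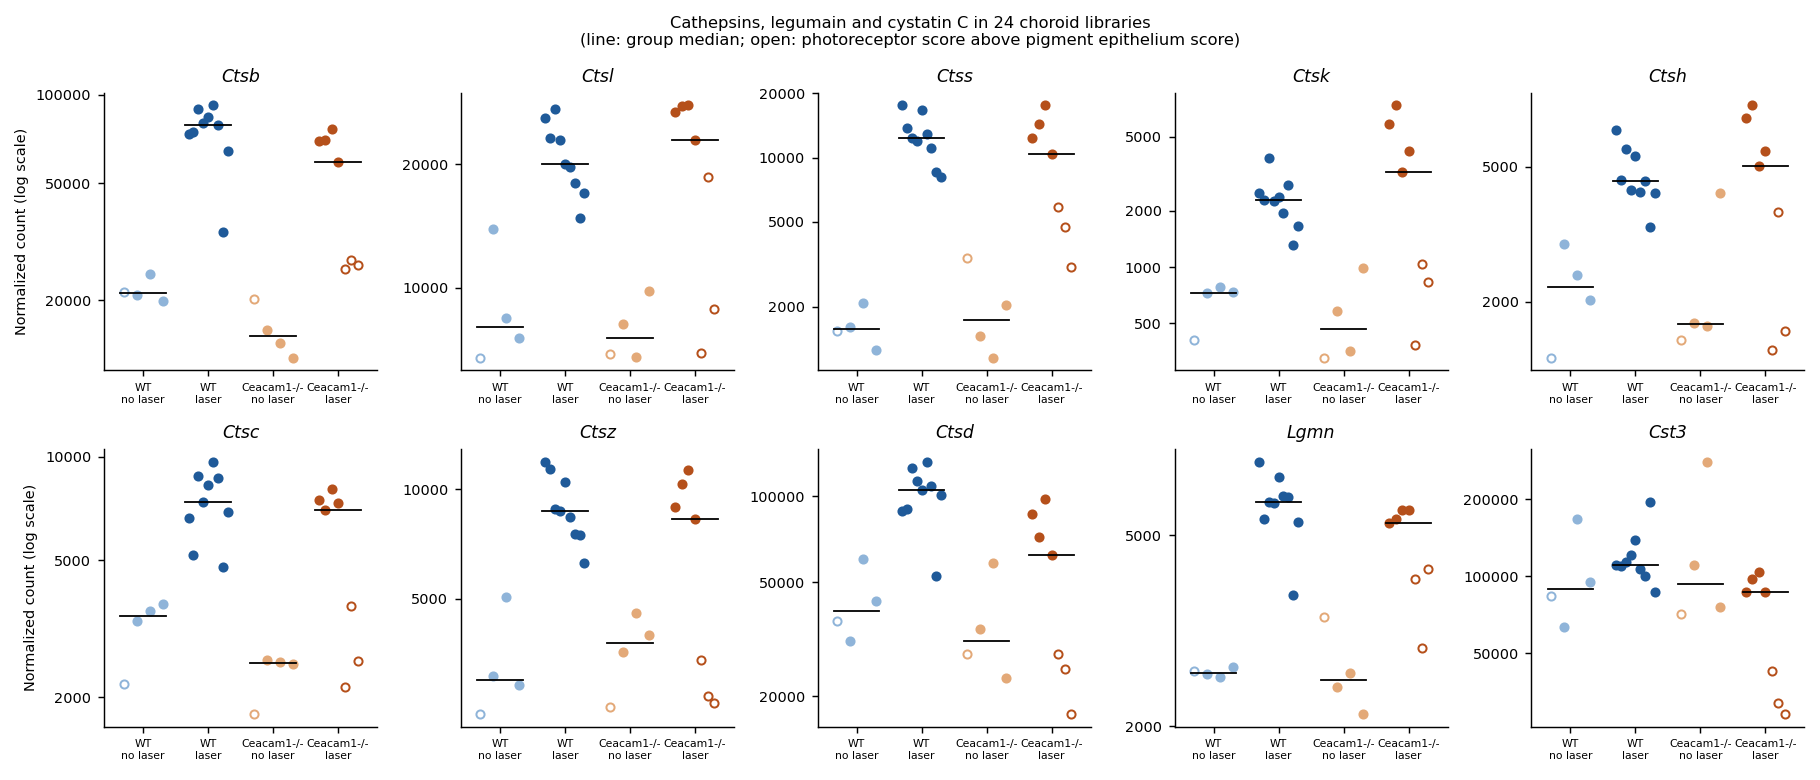
Normalized counts (log axis) of the 10 genes in 24 choroid libraries by genotype and laser, with the group median as a line and the 5 photoreceptor-rich libraries as open circles. The 9 lasered WT libraries lie above all 4 untreated WT libraries for 8 genes, whereas the lasered Ceacam1-/- libraries split into 4 high and 3 photoreceptor-rich libraries.

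The first question was how the proteases differed between lasered and untreated choroid of WT mice. All 10 genes passed the filter on low values, a mean of at least 10 normalized counts. In a limma model of all 24 libraries, 6 of the 10 were higher with laser at an adjusted p below 0.05, namely Ctsb, Ctsc, Ctsl, Ctss, Ctsz and Lgmn, and none was lower. Of all 19950 genes tested, 844 were higher at that threshold, which is 4.23%. The median log2 fold change of the 10 was 1.24, beside -0.10 over all genes tested. For 8 of the 10 the lasered and untreated WT libraries did not overlap at all, which was the case in this direction for 4.5% of all genes. Without the untreated WT library 21, 3 of the 10 (Ctsb, Ctss and Lgmn) were past the threshold, without library 27 there were 4, and without the lasered Ceacam1-/- library 18 there were 9. Without all 5 photoreceptor-rich libraries 9 passed, all but Cst3, and 5.76% of all genes were then higher and 2.63% lower. In whole tissue, more cells of a type and more RNA per cell cannot be told apart.

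Ctss (cathepsin S, chr3:95433963-95463717, plus strand), the protease of antigen-presenting myeloid cells, differed most. The untreated WT libraries 21, 22, 26 and 27 had 1543, 1607, 2076 and 1246 normalized counts. The lasered WT libraries ranged from 8067 to 17563 with a median of 12408. Every lasered library was therefore higher than every untreated one, and the lowest of them, library 19, was still far above the highest untreated value. The mean rose from 1618 ± 344 (SD, n = 4) to 12555 ± 3213 (SD, n = 9), a log2 fold change of 2.94 (standard error 0.36, limma adjusted p = 2.18e-05) or 7.65-fold. Ctss had the 28th lowest p of the 19950 genes. With each library left out in turn its log2 fold change stayed between 2.82 and 3.06.

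Ctsb and Ctsl are the broadly expressed endopeptidases of the papain family. Ctsb (cathepsin B, chr14:63358384-63383372, plus strand) had 21427, 20827, 24636 and 19865 normalized counts in the untreated WT libraries 21, 22, 26 and 27 and from 34270 to 92187 (median 79187) in the lasered ones. The groups did not overlap, although the lasered library 17 lay far below the other 8, of which the lowest was 64478. Ctsb was higher with laser by 1.74 on the log2 scale (standard error 0.31, adjusted p = 0.00112), or 3.34-fold. Ctsl (cathepsin L, chr13:64507151-64518704, minus strand) had 6760, 13931, 8466 and 7558 in the untreated libraries and from 14786 to 27316 (median 20077) with laser. The untreated library 22 came close to the lowest lasered one without reaching it. On the log2 scale Ctsl was higher by 1.23 (standard error 0.31, adjusted p = 0.0209), with adjusted p values of 0.106, 0.0517 and 0.0874 without the untreated libraries 21, 26 and 27.

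Ctsc and Ctsz are exopeptidases with restricted substrates. Ctsc (cathepsin C, chr7:87927092-87960096, plus strand), which activates the serine proteases of granulocytes and mast cells, had 2183, 3327, 3570 and 3734 normalized counts without laser and from 4797 to 9697 (median 7375) with laser in WT. On the log2 scale Ctsc was higher by 1.20 (standard error 0.30, adjusted p = 0.0203), and the adjusted p was 0.117 without the untreated library 21, its lowest. Ctsz (cathepsin Z, chr2:174267304-174280832, minus strand), a carboxypeptidase of myeloid cells, had 2421, 3076, 5054 and 2906 without laser and from 6281 to 11895 (median 8704) with laser. The single untreated library 26 stood between its group and the lasered libraries. The log2 fold change of Ctsz was 1.45 (standard error 0.34, adjusted p = 0.013), and the adjusted p was 0.0734 and 0.0553 without the untreated libraries 21 and 27. For these genes the groups did not overlap.

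Lgmn (legumain, chr12:102359122-102414682, minus strand) cleaves after asparagine and processes the precursors of several cathepsins into their mature forms. It was the steadiest member without laser, with 2608, 2570, 2535 and 2659 normalized counts in the WT libraries 21, 22, 26 and 27. With laser it ranged from 3754 to 7130 (median 5877), so the groups were well apart even in the lowest library, again library 17. The mean rose from 2593 ± 53.3 (SD, n = 4) to 5784 ± 943 (SD, n = 9), a log2 fold change of 1.14 (standard error 0.17, adjusted p = 0.000218). It had the smallest standard error of the 10, and its rank by p was 87 of 19950.

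Ctsk and Ctsh did not pass the threshold in WT although their groups were apart. Ctsk (cathepsin K, chr3:95406178-95416732, plus strand), the collagen-degrading member, had 410, 724, 785 and 734 normalized counts without laser and from 1322 to 3822 (median 2287) with laser. Its log2 fold change of 1.80 was the second highest of the 10, but its standard error of 0.55 was the largest and its adjusted p was 0.0595. Ctsh (cathepsin H, chr9:89936205-89958148, plus strand), an aminopeptidase, had 1364, 2954, 2397 and 2014 without laser and from 3323 to 6431 (median 4551) with laser (log2 fold change 1.15, standard error 0.37, adjusted p = 0.0707). For each of these genes, and for the other 6 whose groups did not overlap, an exact permutation test over the 715 splits gave a two-sided p of 0.0014, the smallest that 9 against 4 libraries allow. The model of all libraries shares 1 estimate of spread, so Ceacam1-/- libraries weigh in: without the lasered library 4, 5, 14 or 18 Ctsk had an adjusted p of 0.0499, 0.0409, 0.0182 or 0.0464, and without 14 or 18 Ctsh had 0.0335 or 0.042. In a fit of the 13 WT libraries alone, Ctsk, Ctsh and Ctsd were also past the threshold, with adjusted p values of 0.000252, 0.00181 and 0.00589.

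Ctsd (cathepsin D, chr7:141929646-141941775, minus strand), the aspartic protease prominent in pigment epithelium, had 36491, 31254, 60301 and 43092 normalized counts without laser and from 52605 to 132320 (median 105430) with laser in WT. The lasered library 17 was lower than the untreated library 26, and the other 8 lasered libraries were higher than every untreated one. The difference was 1.26 on the log2 scale (standard error 0.39, adjusted p = 0.062, exact permutation p = 0.0028), and without library 17 it was 1.37 with an adjusted p of 0.0376. Without the lasered Ceacam1-/- library 18 the adjusted p was 0.0326. Cst3 (chr2:148713635-148717887, minus strand) was the one member without a clear difference. It had 83655, 63238, 166683 and 94647 without laser and from 87055 to 195631 (median 110754) with laser, and only library 17 exceeded the highest untreated library. Its log2 fold change was 0.30, with a 95% interval from -0.52 to 1.11 (adjusted p = 0.691).

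**Figure D2:**
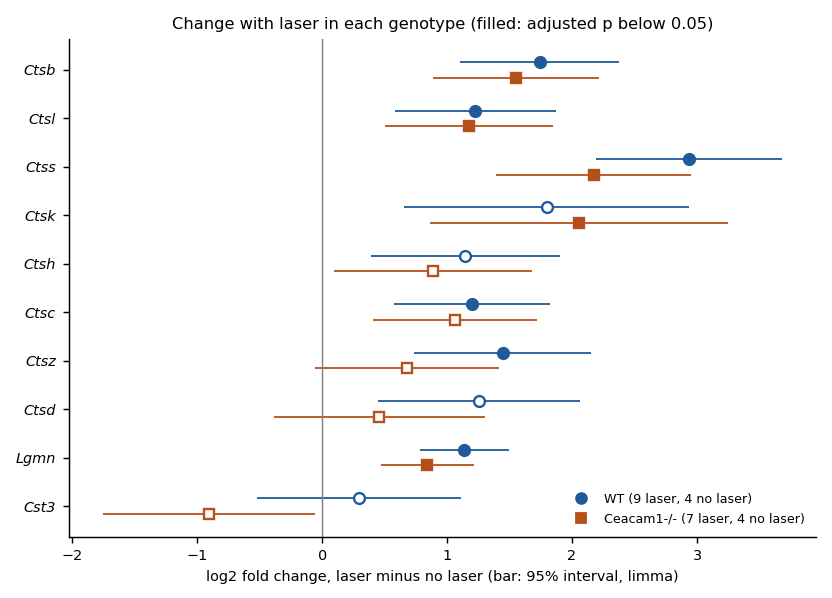
log2 fold changes of the 10 genes with laser in WT (circles, 9 against 4 libraries) and Ceacam1-/- (squares, 7 against 4 libraries), with 95% intervals and filled symbols for an adjusted p below 0.05. Ctss changed most in both genotypes (2.94 and 2.17), and Cst3 stood lowest in both (0.30 and -0.91).

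The same question was asked in Ceacam1-/- mice, where the lasered libraries were more spread. In the model of all 24 libraries, 5 of the 10 genes were higher with laser, namely Ctss, Ctsb, Lgmn, Ctsl and Ctsk, and none was lower. Over all genes 413 of 19950, or 2.07%, were higher at this threshold. In a fit of the 11 Ceacam1-/- libraries alone none of the 10 passed, with adjusted p between 0.128 and 0.294 for those 5 and 38 genes past the threshold in all. Only Ctsb had groups that did not overlap, which held for 1.17% of all genes in this direction. Without the 5 photoreceptor-rich libraries 9 of the 10 passed, all but Cst3. This setting, chosen after seeing the data, sets the lasered libraries 4, 5, 6 and 7 against the untreated libraries 24, 25 and 28. The lasered libraries it leaves out were the lowest of their group for Ctss, Ctsb and Ctsk, so larger changes without them are no separate support. In that setting 8.66% of all genes were higher and 6.26% lower. Without the untreated library 25 alone 2 passed, Ctsb and Ctss, and with the Y-linked genes as a covariate 3 passed, Ctsb, Ctss and Lgmn.

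Ctss had 3386, 1452, 1151 and 2023 normalized counts in the untreated Ceacam1-/- libraries 23, 24, 25 and 28. The lasered libraries 4, 5, 6 and 7 had 12301, 14323, 17564 and 10420, and the photoreceptor-rich lasered libraries 14, 15 and 18 had 5887, 4697 and 3051. The 4 former libraries were thus all above the lowest lasered WT library, with the highest level with the highest WT one, while library 18 was below the photoreceptor-rich untreated library 23. The difference was 2.17 on the log2 scale (standard error 0.38, adjusted p = 0.00229, exact permutation p = 0.00909), and 3.16 without the photoreceptor-rich libraries (adjusted p = 1.62e-06).

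Ctsb showed the same split with less overlap. It had 20168, 15845, 14287 and 12753 normalized counts in the untreated libraries 23, 24, 25 and 28. The lasered libraries 4, 5, 6 and 7 had 69453, 70353, 76587 and 59345, and libraries 14, 15 and 18 had 25521, 27408 and 26289. All 7 were above the untreated libraries (log2 fold change 1.55, standard error 0.32, adjusted p = 0.00908, exact permutation p = 0.00606), and without the photoreceptor-rich libraries the log2 fold change was 2.27 (adjusted p = 2.72e-05). Lgmn ranged from 2123 to 3383 without laser and from 2907 to 5664 with laser, and 6 of the 7 lasered libraries were above all untreated ones (log2 fold change 0.84, standard error 0.18, adjusted p = 0.0115, and 1.22 without the photoreceptor-rich libraries). Without library 25 the adjusted p of Lgmn was 0.0509.

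Ctsk was the most variable member in lasered Ceacam1-/- choroid, with a coefficient of variation of 82.2%. Its untreated libraries 23, 24, 25 and 28 had 328, 581, 358 and 985 normalized counts. The lasered libraries 4, 5, 6 and 7 had 5849, 7339, 3242 and 4183, and libraries 14, 15 and 18 had 382, 1039 and 833. In 3 of the 4 former libraries Ctsk was higher than in any lasered WT library, and library 14 was as low as untreated choroid. The difference was 2.06 on the log2 scale (standard error 0.58, adjusted p = 0.0472, exact permutation p = 0.0545), and 3.06 without the photoreceptor-rich libraries (adjusted p = 1.26e-05). The call was lost when any 1 of 18 of the 24 libraries was left out, with adjusted p up to 0.217 (without the untreated library 25).

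Ctsl (log2 fold change 1.18, adjusted p = 0.0436, and 1.69 without the photoreceptor-rich libraries) likewise lost its call without any 1 of 14 libraries, with adjusted p up to 0.191 (also without library 25). Ctsc (1.06, adjusted p = 0.0593, but 0.0154 and 0.0254 without the lasered library 14 or 18), Ctsh (0.89, 0.192), Ctsz (0.68, 0.293) and Ctsd (0.46, 0.556) did not pass with all libraries. Without the 5 photoreceptor-rich ones their log2 fold changes were 1.56, 1.43, 1.26 and 1.13, with adjusted p of 4.95e-05, 0.00155, 0.000912 and 0.0319. Cst3 had 70989, 110236, 280906 and 75894 normalized counts in the untreated libraries 23, 24, 25 and 28. With laser it had 86990, 97292, 103747 and 86859 in libraries 4, 5, 6 and 7, and 42531, 32045 and 28922 in libraries 14, 15 and 18. Its highest value was in the untreated library 25 and its lowest were in the photoreceptor-rich lasered libraries, and the log2 fold change of -0.91 (standard error 0.41, adjusted p = 0.216) was -0.51 without the 5 photoreceptor-rich libraries.

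The comparison of the genotypes asked whether loss of CEACAM1, an adhesion molecule of endothelial and myeloid cells, was accompanied by other protease levels. Without laser none of the 10 genes passed the threshold (limma, 8 libraries, adjusted p = 0.999 for each, with 0% of the 20057 genes tested past it). The paper, using DESeq2 with sex as a covariate, did report some differentially expressed genes between untreated choroids. The absence of such genes here therefore holds only for this model without sex. At an unadjusted p under 0.05 there were 307 such genes, or 1.53%, and none of the 10 was among them. The groups overlapped for all 10, whereas they were apart, in either direction, for 1.36% of all genes. The lowest exact permutation p was that of Ctsb, 0.0571, where 4 against 4 libraries allow no less than 0.0286. Ctsb had 15763 ± 3197 normalized counts in Ceacam1-/- and 21689 ± 2068 in WT mice (SD, n = 4 each), and its log2 difference of -0.48 had a 95% interval from -0.99 to 0.04. The intervals of the other 9 also held 0, and that of Lgmn, from -0.41 to 0.41, was the narrowest.

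With laser all 10 genes had a lower mean log2 value in Ceacam1-/- than in WT choroid, and none passed the threshold (limma, 16 libraries). Of 19757 genes 4 did, or 0.0202%, while 4479 had an unadjusted p under 0.05, among them 3 of the 10 (Ctsb, Ctsd and Cst3), and the groups were apart for 0.147% of all genes but for none of the 10. The largest differences were those of Ctsd (log2 difference -1.10, standard error 0.35, adjusted p = 0.136, exact permutation p = 0.00603) and Cst3 (-0.95, 0.30, 0.132 and 0.000962). Ctsd ranged from 17320 to 97576 (median 62082) in lasered Ceacam1-/- and from 52605 to 132320 in lasered WT libraries. Its 3 lowest values were in the photoreceptor-rich libraries 18, 15 and 14, as were those of Cst3. Without all photoreceptor-rich libraries the log2 difference of Ctsd was -0.34 (adjusted p = 0.759), that of Cst3 was -0.33 (adjusted p = 0.725) and that of Ctsb went from -0.67 to -0.074 (adjusted p = 0.972). The values of Ctsc, Ctsh, Ctsk, Ctsl, Ctss and Ctsz then had the opposite sign, with differences from 0.05 to 1.14 and adjusted p from 0.247 to 0.974. Marker lists were read in the same comparison. An unadjusted p under 0.05 was found for 22.67% of all genes, for 12 of 12 muscle and 7 of 12 pigment epithelium genes, all lower in Ceacam1-/-, and for 10 of 15 photoreceptor genes, all higher. It was found for 1 of 10 fibroblast and 3 of 15 myeloid genes. Without the photoreceptor-rich libraries, where 8.4% of all genes had such a p, 2 of the 10 members did. They were Ctsk and Ctsh, both higher in Ceacam1-/- choroid (log2 differences 1.14 and 0.42), and no longer Ctsb, Ctsd and Cst3. The counts there were 6 of 12 muscle, 1 of 12 pigment epithelium, 0 of 15 photoreceptor, 0 of 15 myeloid and 7 of 10 fibroblast genes. The fibroblast genes then had a median log2 difference of 0.87. In the same setting Ctsk had its difference of 1.14 (adjusted p = 0.247). The summed muscle markers were 377589 ± 138061 normalized counts in lasered WT and 167734 ± 103617 in lasered Ceacam1-/- libraries, and the summed pigment epithelium markers were 469058 ± 121870 and 245067 ± 175995. Their part in the protease values was not tested. Genotype and the share of retina in the sample cannot be told apart in the lasered groups, since no lasered WT library was photoreceptor-rich.

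Whether laser acted differently in the 2 genotypes was tested as an interaction. None of the 10 genes passed, nor did any of the 19950 genes (limma, 0%), although 1241 had an unadjusted p under 0.05. Cst3 had the lowest p (-1.20, unadjusted p = 0.0453, adjusted p = 0.64), followed by Ctsz (-0.77, adjusted p = 0.64) and Ctss (-0.76, adjusted p = 0.641). Without the photoreceptor-rich libraries these were -0.74 for Cst3, -0.049 for Ctsz and 0.24 for Ctss, and the value of Ctsk went from 0.26 to 1.48, with adjusted p from 0.865 to 0.982 for the 4 genes. With all libraries the 95% intervals were wide, from -1.84 to 0.32 for Ctss and from -1.39 to 1.91 for Ctsk, and genes past the threshold in one genotype and not in the other were not shown to differ between them.

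To compare the members with one another, normalized counts were divided by the length of the canonical transcript in kb. In untreated WT choroid Cst3 stood highest with 110331 ± 48656 per kb, followed by Ctsd with 20115 ± 5944 and Ctsb with 4540 ± 433 (SD, n = 4 each). These 3 kept that order in every WT library. Ctsl (1554), Ctsh (1328), Ctsc (1189), Ctss (1184), Ctsz (983) and Lgmn (800) followed with ranges that overlapped between neighbours, and Ctsk was lowest with 350 ± 90.3 per kb. In lasered WT choroid Ctss held the 4th place, against the 7th without laser, with 9191 ± 2352 per kb, and was above Ctsl in all 9 libraries. With the longest annotated transcript as the divisor the 2 places were the 5th and the 9th, and Ctsl was above Ctss in 8 libraries. The places of Cst3, Ctsd and Ctsb by mean were the same in all 4 groups and with each of 3 choices of transcript length.

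The proportion of the inhibitor to its targets was read in each library, with no test. Per kb, Cst3 exceeded the sum of the 7 cysteine cathepsins 9.70-, 5.60-, 14.1- and 10.0-fold in the untreated WT libraries 21, 22, 26 and 27. In lasered WT choroid the ratio ranged from 2.73 to 9.35 with a median of 3.05, and 8 of the 9 libraries were below every untreated one. In untreated Ceacam1-/- libraries 23, 24, 25 and 28 it was 7.39, 13.1, 35.8 and 7.48, and with laser it ranged from 2.00 to 3.36 (median 2.51), the photoreceptor-rich libraries included. The highest ratios of their groups were in libraries 17 and 25, in which Lars2, the most abundant gene of every library, also had its largest shares of all counts, 8.79% and 8.09%. The part of these libraries' composition in the ratio was not tested. The 9 proteases together took 0.341% of all counts in untreated WT, 0.912% in lasered WT, 0.262% in untreated Ceacam1-/- and 0.639% in lasered Ceacam1-/- libraries, as group means.

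**Figure D3:**
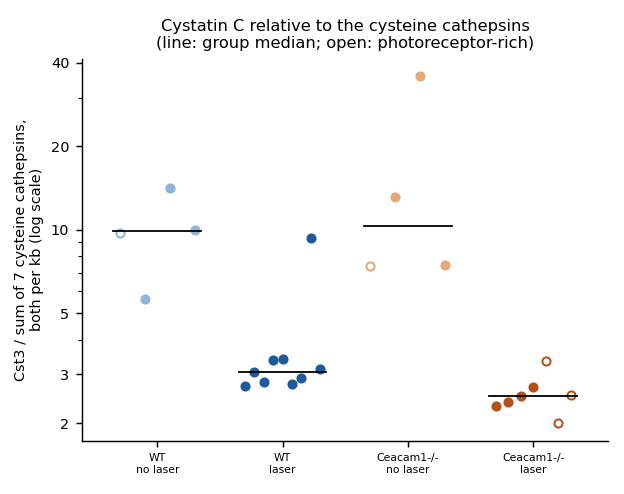
Ratio of Cst3 to the summed cysteine cathepsins Ctsb, Ctsc, Ctsh, Ctsk, Ctsl, Ctss and Ctsz, each per kb of canonical transcript, per library on a log axis. The median was 9.85 in untreated and 3.05 in lasered WT libraries, and 10.3 and 2.51 in Ceacam1-/- libraries, with library 17 (9.35) and library 25 (35.8) as the highest of their groups.

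Other genes of the lysosome were read from lists of its enzymes, membrane and sorting. Over all genes tested, 4.23% were higher with laser in WT and 2.07% in Ceacam1-/- mice. Among 35 other genes of acid hydrolases and their activator proteins, called hydrolases below, 11 rose with laser in WT. In Ceacam1-/- mice 2 rose, Acp5 and Gla, and the medians were 0.58 and 0.35 on the log2 scale. The 3 with the largest changes in WT were Acp5, the tartrate-resistant acid phosphatase (185 ± 78.5 to 838 ± 200 normalized counts, adjusted p = 0.00494), Gla, the alpha-galactosidase (173 ± 37.7 to 576 ± 228, adjusted p = 0.000811), and Galns, a sulfatase of keratan sulfate (174 ± 58.2 to 504 ± 107, adjusted p = 0.004). Of 14 lysosomal membrane genes 3 rose in WT and 2, Cd68 and Laptm5, in Ceacam1-/- mice. The 3 were the macrophage genes Cd68 (log2 fold change 2.77, adjusted p = 0.000141), Laptm5 (2.13, 0.000434) and Gpnmb (1.98, 0.0201). Of 12 sorting genes 3 rose in WT and 1, Grn, in Ceacam1-/- mice. In WT these were Grn, which encodes progranulin (1.62, adjusted p = 0.00154), and the mannose 6-phosphate receptors Igf2r (1.07, 0.00703) and M6pr (0.50, 0.0304).

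Of 17 subunit genes of the proton pump that acidifies the lysosome, only Atp6v0d2, the isoform of osteoclasts and macrophages, rose, from 66.4 ± 38.4 to 587 ± 234 normalized counts in WT (log2 fold change 3.15, adjusted p = 0.00461) and also in Ceacam1-/- mice (2.78, adjusted p = 0.0242). The median of the 17 was 0.29 in WT and 0.12 in Ceacam1-/- mice. A count of 1 in 17 is near the share of all genes that rose, 4.23% in WT and 2.07% in Ceacam1-/- mice. Of 8 regulators of lysosomal genes, Spi1, the macrophage transcription factor PU.1, rose from 200 ± 54.6 to 955 ± 265 in WT (2.25, adjusted p = 0.000246), and in Ceacam1-/- mice Spi1 rose again (1.62, 0.0141) together with Tfec (2.01, 0.0412), a relative of TFEB named here after its value was seen. Among 4 other cathepsins that passed the filter Ctsw, of cytotoxic lymphocytes (29.2 ± 11.4 to 182 ± 74.6, adjusted p = 0.00161), and Ctsa, which protects beta-galactosidase (4219 ± 817 to 7912 ± 735, adjusted p = 0.011), rose in WT and none did in Ceacam1-/- mice. Of 7 other cystatins and stefins tested, Cstb, a cytosolic inhibitor of cathepsins, rose in WT (2095 ± 689 to 4891 ± 1254, adjusted p = 0.0152) and none did in Ceacam1-/- mice. In Ceacam1-/- mice 1 of the 4 cathepsins and 1 of the 7 cystatins and stefins had an unadjusted p under 0.05 by limma, as had 20.04% of all genes tested. None of these genes passed the test of a difference between the genotypes in the effect of laser. Without the 5 photoreceptor-rich libraries more genes of 6 of these 7 lists passed in Ceacam1-/- mice, where 8.66% of all genes were then higher and 6.26% lower. There 19 of 35 hydrolases, 8 of 14 membrane genes, 2 of 12 sorting genes, 2 of 17 proton pump subunits, 2 of 8 regulators, 2 of 4 other cathepsins and none of 7 cystatins and stefins (1 at an unadjusted p under 0.05) were higher, and 1 regulator was lower. In WT, with 5.76% of all genes higher, the counts without those libraries were 14, 4, 3, 1, 1, 2 and 1. The medians in Ceacam1-/- mice went from 0.35 to 0.72 for the hydrolases, from 0.26 to 0.69 for the membrane genes, from 0.20 to 0.48 for the sorting genes and from 0.12 to 0.27 for the proton pump. Those of the other cathepsins went from 0.48 to 0.63, of the cystatins and stefins from -0.65 to -0.78 and of the regulators from -0.12 to -0.01. In WT the median of the cystatins and stefins turned from 0.10 to -0.27.

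**Figure D4:**
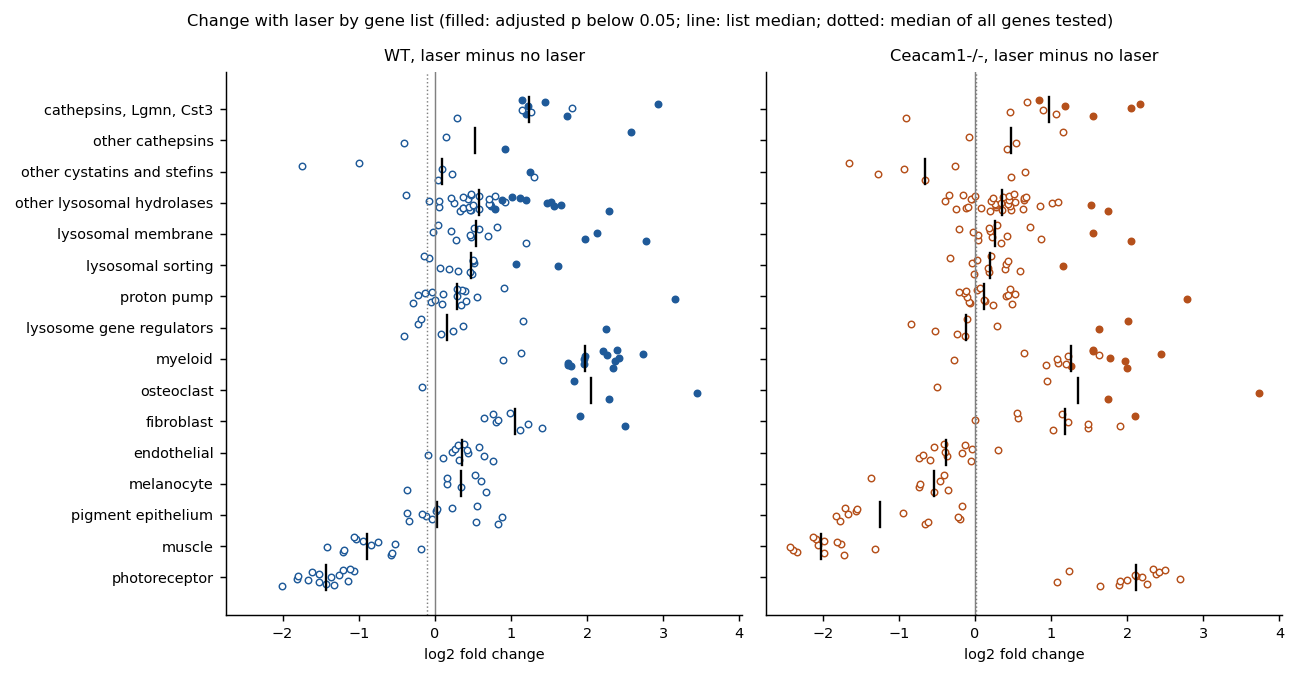
log2 fold changes with laser in WT (left) and Ceacam1-/- (right) for genes of each list, with filled circles for an adjusted p below 0.05, a line at the list median and a dotted line at the median of all 19950 genes. In WT the medians of the 10 members (1.24) and of myeloid markers (1.97) lie right of those of all other lysosomal lists, and photoreceptor markers lie on opposite sides in WT (-1.44) and Ceacam1-/- (2.11).

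Markers of cell types were read in the same libraries, where 4.23% of all genes were higher with laser in WT and 2.07% in Ceacam1-/- mice. Without the photoreceptor-rich libraries these shares were 5.76% and 8.66%. Of 15 myeloid markers 13 rose with laser in WT and 7 in Ceacam1-/- mice, with medians of 1.97 and 1.27, and none of them was at 0 in any group. The most abundant was Lyz2 (8289 ± 2680 to 56126 ± 19146 in WT, log2 fold change 2.74, adjusted p = 0.000129), and Fcer1g (2.42, 9.07e-05) and Tyrobp (2.39, 0.000379) followed by size of change. The summed myeloid markers went from 19142 ± 5895 to 94608 ± 27846 normalized counts in WT and from 17684 ± 2523 to 64449 ± 35412 in Ceacam1-/- mice. Of 7 osteoclast genes listed 4 were tested, and Ocstamp, Dcstamp and Calcr did not pass the filter on low values. Mmp9, Acp5 (also counted among the hydrolases) and Tnfrsf11a rose in WT, and the first pair also rose in Ceacam1-/- mice. Nfatc1, the most abundant of the list without laser, did not rise (log2 fold change -0.18 in WT and -0.5 in Ceacam1-/- mice). Of 10 fibroblast markers Col3a1 (2.50, adjusted p = 0.00957) and Lum (1.90, 0.0309) rose in WT and Lum rose in Ceacam1-/- mice (2.11, 0.031). Without the photoreceptor-rich libraries 14 of 15 myeloid markers rose in each genotype, as did 3 of the 5 osteoclast genes then tested, and 4 of 10 fibroblast markers in WT and 9 of 10 in Ceacam1-/- mice. In the latter the medians went from 1.27 to 1.98 for myeloid, from 1.35 to 2.08 for osteoclast and from 1.18 to 1.97 for fibroblast genes.

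With all libraries no gene of the endothelial, melanocyte, pigment epithelium, muscle and photoreceptor lists passed in either genotype by limma. Without the photoreceptor-rich libraries 2 of 12 muscle genes in WT and 11 of 12 in Ceacam1-/- mice were lower, and no gene of the other 4 lists passed. An unadjusted p under 0.05 was found for 20.02% of all genes tested in WT and 20.04% in Ceacam1-/- mice. In WT it was found for 2 of 12 endothelial and 1 of 12 muscle genes. In Ceacam1-/- mice it was found for 1 of 7 melanocyte genes, and for 7 of 12 pigment epithelium and 11 of 12 muscle genes, all of the latter lists with negative values. The most abundant endothelial markers, Plvap, Eng and Emcn, had log2 fold changes of 0.58, -0.09 and 0.64 in WT and -0.54, -0.68 and -0.37 in Ceacam1-/- mice. Among pigment epithelium genes Ttr, Rgr and Dct had 0.23, -0.17 and 0.55 in WT and -1.71, -1.66 and -0.61 in Ceacam1-/- mice. Among melanocyte genes Mlana, Ednrb and Tyr had 0.35, 0.67 and 0.53 in WT and -0.74, -0.54 and -0.41 in Ceacam1-/- mice. The muscle genes Atp2a1, Acta1 and Tnnt3 (-1.21, -0.58 and -1.06) and the photoreceptor genes Gnat1 and Sag (-1.44 and -1.12) had negative values in WT, and in Ceacam1-/- mice those of muscle were -2.34, -1.72 and -2.12 and those of the photoreceptors 2.26 and 2.34. Without the photoreceptor-rich libraries the Ceacam1-/- medians turned from -0.38 to 0.22 for endothelial and from -0.54 to 0.56 for melanocyte genes, and went from -1.25 to -0.60 for pigment epithelium, from -2.02 to -2.40 for muscle and from 2.11 to 1.70 for photoreceptor genes. Summed photoreceptor markers spanned 10709 to 1192705 normalized counts within the lasered Ceacam1-/- group. The part of these cell types in the protease values was not tested.

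Which cells' markers each protease followed from library to library was described by correlating deviations from the group means over the 24 libraries, for 10 genes and 5 marker lists (50 relations, permuted within groups, Benjamini-Hochberg adjusted over the 50). All genes of a library share its dissection, so these relations are not independent. Ctsk followed the fibroblast score most closely of all (Pearson r = 0.97, Spearman coefficient 0.97, adjusted permutation p = 0.00025 and 0.000167, r = 0.94 without the 2 libraries farthest from the median), and Ctsh did so with r = 0.90 (Spearman 0.86, 0.00025 and 0.000167, r = 0.84). Ctsz (r = 0.92, Spearman 0.87, adjusted permutation p = 0.000333 and 0.000875, r = 0.89) and Ctss (r = 0.83, Spearman 0.80, 0.000929 and 0.00138, r = 0.72) followed the myeloid score most closely. For Ctsd the highest was the pigment epithelium score (r = 0.88, Spearman 0.91, adjusted permutation p = 0.000333 and 0.000167, r = 0.87).

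Cst3 also had its highest r with pigment epithelium (r = 0.80, Spearman 0.80, adjusted permutation p = 0.00161 and 0.00138, r = 0.78) and its lowest with photoreceptors (r = -0.76, Spearman -0.78, 0.00233 and 0.00138, r = -0.76). Lgmn had the lowest maximum of the 10, with the myeloid score (r = 0.56, Spearman 0.59, adjusted permutation p = 0.0266 and 0.0293, r = 0.57). Among the members themselves, r of the same deviations was highest for Ctsk with Ctsh (0.92) and lowest for Cst3 with Lgmn (0.27).

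Several of these relations rested on the 5 photoreceptor-rich libraries. In the other 19 libraries r was 0.88 for Ctsk and 0.73 for Ctsh with the fibroblast score, and 0.88 for Ctss and 0.68 for Ctsz with the myeloid score. With the pigment epithelium score it was 0.64 for Ctsd and 0.58 for Cst3, and for Lgmn with the myeloid score it was 0.39. Ctsb, which had r of 0.74, 0.71 and 0.69 with the myeloid, pigment epithelium and fibroblast scores over all libraries, had 0.30, 0.31 and 0.42 without them. Ctsc went likewise from 0.79, 0.82 and 0.89 to 0.09, 0.45 and 0.38, and Ctsl from 0.76, 0.51 and 0.85 to 0.36, -0.53 and 0.52. The photoreceptor score had r of -0.59 with Cst3 in these 19 libraries but 0.10 with Ctsb, so its sign was no longer shared by all 10 genes. The r of Ctsk with Ctsh was 0.80 and that of Cst3 with Lgmn was -0.10.

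**Figure D5:**
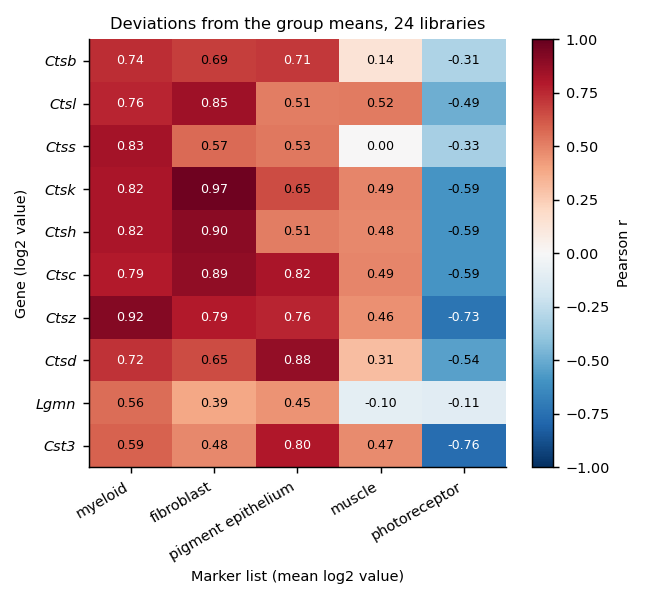
Pearson r, over 24 libraries, between the log2 value of each gene and the mean log2 value of each marker list, both as deviations from the group means. Ctsk with fibroblast markers (0.97), Ctsz with myeloid markers (0.92) and Ctsd with pigment epithelium markers (0.88) are the highest of their columns, against 0.88, 0.68 and 0.64 without the 5 photoreceptor-rich libraries. The photoreceptor column is negative for all 10 genes over the 24 libraries.

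Genes most alike to each member by the same measure over all 24 libraries, out of the 19950 tested, are given as a description. Without the 5 photoreceptor-rich libraries r of the pairs named here was between 0.70 and 0.94. For Ctsb they were the lysosomal genes Asah1 (r = 0.94) and Lamp1 (0.93), for Ctss the leukocyte genes Laptm5 and Ly86 (0.91 and 0.90), and for Ctsz Cyba and Ms4a7 (0.97 and 0.96). For Ctsk they were Pdgfrl and Creb3l1 (0.98 and 0.98), for Cst3 Lrmda (0.97), and for Lgmn Cd83 and Mboat2 (0.90 and 0.86). Ctsd was most like Adora2b and Ptges (both 0.94), Ctsc like Wls and Nucb1 (both 0.95), Ctsh like Shisa5 and Anxa4 (0.96 and 0.94) and Ctsl like Nck2 and Kctd11 (both 0.93).

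Some members share sequence with other genes, which could move reads between them in pseudo-alignment. Of the 31-base words in the canonical transcript, 1187 of 4747 of Ctsb were also in other genes, mostly the overlapping Fdft1 on the opposite strand, and 28.7% of Ctsz were in Nelfcd. For Ctsd the share was 37.1% (Gm49369) and for Ctsl 31.5% (mostly Gm47123). Mean normalized counts were 1940 for Fdft1 and 1093 for Nelfcd, but 6.1 for Gm49369 and 9.8 for Gm47123. No word of Ctsc, Ctsk and Ctss was shared, and 3.7% or less of the words of Ctsh, Lgmn and Cst3 were. Ctsk and Ctss are neighbours on chromosome 3, 17.2 kb apart.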

How the data were processed

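RNA of mouse choroid (24 libraries) was profiled by the authors with SMART-Seq. Per the study's methods and the submitters' processing notes, reads were checked with FastQC 0.11.5, pseudo-aligned to GRCm39 with Salmon 1.10.3 and normalized with DESeq2 1.44.0. The deposited values (signal) are normalized counts per gene, that is, estimated reads divided by library-size and transcript-length factors. Whole reads could not be recovered, since 31.2% to 75.0% of low values per library were near whole multiples, so depth is known only roughly and count models were not run. The authors removed 1 outlier library from their own comparison. It is not identified in the sources used here. After its removal the paper counts 4 wild type and 4 Ceacam1-/- samples, as many as the untreated libraries of each genotype here. These untreated libraries therefore do not appear to include it. Sex is not in the labels.

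Groups came from the sample labels. log2(value + 1) was fitted with limma 3.58.1 (R 4.3.3) with a variance trend, over genes with a mean of at least 10. Fold changes are therefore on the log2(value + 1) scale. Adjusted p values (Benjamini-Hochberg) cover all genes tested, with a threshold of 0.05. The laser comparisons and the interaction used all 24 libraries, and the genotype comparisons 8 without and 16 with laser. Permutation tests were two-sided and exact, and correlations were permuted 100000 times within groups. Symbols, positions and sequences came from the GENCODE vM39 annotation of GRCm39, which matched 99.1% of identifiers. Other steps ran in Python 3.11.15 with scipy 1.17.1, numpy 2.4.6, matplotlib 3.10.9 and pandas 2.3.3. The members, lists and tests were chosen with earlier results of these data known. All 10 members are named. From each other list the 3 largest changes past the threshold in WT are named, or the 3 most abundant genes where none passed. Some genes that these rules select are not reported here. The method was tested on simulated data for laser in WT, with 200 changed genes (19974, 19923 and 19959 genes tested). It recovered 22% of those changed by 1 on the log2 scale, 69.5% of those changed by 2 and 84.5% of those changed by 3. There were 0, 7 and 8 false calls. Many changes near 1 were thus missed in that simulation. In these data 1053 genes passed with laser in WT, so the share recovered can differ. Alternatives were other pseudocounts, filters and normalizations, no variance trend, array weights, Y-linked and photoreceptor covariates, a fit of the compared groups alone (for genotype, of all 24 libraries), and dropping 1 library at a time. Leaving out the photoreceptor-rich libraries, for members, lists and correlations, and the median transcript length, were chosen after seeing the data.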

Additional observations from a re-analysis of the deposited data

Results flagged for a closer look

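In 5 of 40 groups of 4 to 9 libraries 1 library stood apart from the rest of its group by Dixon's ratio, where chance gives about 1 in 20. The lasered WT library 17 was lowest for Ctsb with 34270 normalized counts (the group's highest was 92187) and highest for Cst3 with 195631 (lowest 87055). Lars2 took 8.79% of the counts of library 17. The untreated Ceacam1-/- library 23 was lowest for Ctsc with 1786 (highest 2556) and the untreated WT library 21 was lowest for Ctsk with 410 (highest 785), and both are photoreceptor-rich. The untreated Ceacam1-/- library 28 was highest for Ctsh with 4180 (lowest 1543).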

How the results depend on the processing

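In WT, 6 members passed under every planned setting except array weights and a fit of the WT libraries alone (9 each), and between 3 and 9 with a library left out. The genes past the threshold in WT were 6505 with array weights, 2274 in the fit of WT libraries alone, 1645 without photoreceptor-rich libraries and 479 to 1257 with a library left out (479 without untreated library 21, 554 without 27). In Ceacam1-/- mice, 3 members passed with no filter, without the variance trend or with the Y-linked covariate, 9 with array weights, 8 with the photoreceptor covariate, 0 in the fit of Ceacam1-/- libraries alone, 9 without photoreceptor-rich libraries and 2 to 6 with a library left out. The genes passing there were 437, 3551, 38 and 2923 with no filter, array weights, the separate fit and without photoreceptor-rich libraries, and 148 to 2488 with a library left out (2488 without untreated library 23, 255 without 24, 148 without 25, 466 without lasered library 5). Between genotypes with laser, 2 genes passed at a mean of at least 50 and without photoreceptor-rich libraries, 9 over all 24 libraries, 297 with array weights and 4 to 61 with a library left out (7 without lasered library 4, 25 without 17, 61 without 19). Without laser 1 gene passed with upper-quartile scaling, no trend or array weights, and 0 to 1 with a library left out (1 without library 24).

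No member passed in a genotype comparison or the interaction under any setting run, but signs of log2 values turned. Without laser they were -0.09 for Cst3, -0.10 for Ctsz and 0.074 for Lgmn with the photoreceptor covariate, 0.014 for Lgmn with quantile normalization, 0.013 for Lgmn and 0.005 for Ctsh with upper-quartile scaling, and -0.10 for Ctss without photoreceptor-rich libraries. With laser, in the order array weights, photoreceptor covariate and without photoreceptor-rich libraries, they were 0.25, 0.20 and 0.42 for Ctsh, 0.75, 0.69 and 1.14 for Ctsk and 0.16, 0.14 and 0.35 for Ctsl, and in the last setting 0.054 for Ctsc, 0.14 for Ctss and 0.13 for Ctsz. The interaction, in the same order, turned to 0.057, 0.071 and 0.53 for Ctsb, 0.28, 0.37 and 0.54 for Ctsc, 0.33, 0.37 and 0.49 for Ctsh and 0.18, 0.38 and 0.59 for Ctsl, with quantile normalization to 0.015 for Ctsb and 0.12 for Ctsl, and without photoreceptor-rich libraries to 0.24 for Ctss and 0.078 for Lgmn. Cst3 in WT turned to -0.039 with the photoreceptor covariate. With a library left out, the values that turned sign ranged without laser from -0.18 to 0.52 for Cst3, -0.34 to 0.15 for Ctsh, -0.30 to 0.05 for Ctsl, -0.084 to 0.43 for Ctss and -0.13 to 0.093 for Lgmn, with laser from -0.38 to 0.34 for Ctsk and -0.33 to 0.005 for Ctsl, and in the interaction from -0.26 to 0.061 for Ctsc, -0.42 to 0.077 for Ctsh, -0.038 to 0.67 for Ctsk and -0.27 to 0.18 for Ctsl. The cause of these shifts was not tested. Leaving out the photoreceptor-rich libraries was chosen after seeing the data. No paired analysis was possible because each library has a number of its own that no other group shares.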
